A study of Homo sapiens with 2 samples.

Results

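The genes described here encode the nuclear pore complex, the channel through the nuclear envelope that carries RNA and protein between nucleus and cytoplasm. They were measured in K562, a human erythroleukemia line that carries the BCR-ABL fusion and grows in suspension. A culture nucleofected with 3 µg of a miR-34a mimic, a synthetic double-stranded copy of the microRNA, was set against a culture nucleofected with 3 µg of a control mimic that matches no human gene, and RNA was taken from each after 24 hours. There was 1 Affymetrix array per group, so every value is a single measurement and no test between groups was possible. The 31 genes were listed by their place in the pore, and the list was chosen by way of a gene on it, NUP210, whose low reading on these same arrays was already known. The values of NUP210 are therefore a description, and so are all counts below. All 31 genes had a probe set, and 81 of the 54675 probe sets on the array carried the name of at least 1 of them.

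A pore is built from many copies of a small number of proteins called nucleoporins. Outer rings of Y-shaped complexes lie on both faces of the envelope, an inner ring lines the passage, and a few membrane-spanning proteins anchor the whole. Nucleoporins rich in phenylalanine-glycine (FG) repeats fill the central channel, filaments on the cytoplasmic face take part in releasing exported RNA and protein, and a basket reaches into the nucleus. Nucleoporins are usually thought of as housekeeping proteins, but NUP210 (gp210), a large membrane glycoprotein, is known for levels that differ between tissues and for a role in muscle and neural differentiation in mouse cells.

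A microRNA lowers mRNAs mainly by pairing of its seed, bases 2 to 8, with sites in their 3′ untranslated regions. The guide strand of miR-34a is shown with its seed in capitals, followed by the other 2 mature human miRNAs of the RefSeq table used here (GRCh38.p14, 2545 mature entries) that carry the same seed. MicroRNAs outside that table were not compared, so these 3 need not be all the human miRNAs that carry this seed. The 3 sequences are shown because the seed is the part of the mimic that a search for sites in these genes would use. Sites were not looked for, as no untranslated regions were used here.
hsa-miR-34a-5p: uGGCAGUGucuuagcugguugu
hsa-miR-449a: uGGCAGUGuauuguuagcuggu
hsa-miR-449b-5p: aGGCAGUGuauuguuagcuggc

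Signals are probe set intensities in arbitrary units. Log2 ratios compare log2(signal + 14.9) with miR-34a to that with control, so that negative means lower with miR-34a, and are centred on the median gene, and a probe set counted as expressed above a signal of about 39.0. Each gene is represented by whichever expressed probe set is brightest, and its other probe sets show the technical spread. That spread, an SD taken from the 2 brightest probe sets of 5494 genes that have more than 1, was 0.22 in log2 units and holds no difference between cultures. Signals at or below 75.4, the highest of 27 probe sets for bacterial transcripts, are named as within background. The median signal was 40.1 on the miR-34a array and 39.5 on the control array. The 3′ to 5′ signal ratio of GAPDH, which grows with RNA degradation, was 3.53 on the miR-34a array and 3.07 on the control array. That of actin was larger, 4.54 on the miR-34a array and 4.30 on the control array. Of 10 measured markers of the erythroid lineage 8 read above background on both arrays, among them GATA1 and HBZ, while ALAS2 and SLC4A1 were within background on the control array. Above background on both arrays were also 1 of 6 measured myeloid, 1 of 5 lymphoid and 2 of 6 epithelial and stromal markers. The summed signal of the expressed erythroid markers was 32007 with miR-34a and 26662 with the control mimic, and 9 of 10 were higher. That of the 2 expressed epithelial and stromal markers was 772.3 with miR-34a and 1547.2 with the control mimic, mostly EPCAM at 653.7 with miR-34a and 1426.4 with control. The part of these shifts in the pore values was not tested.

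NUP210 had the lowest ratio of the 31 genes and was their 1 member at least 2-fold lower, but it was not the only pore gene that read low. At least 1.5-fold lower were NUP210, NDC1 and RAE1, and at least 1.5-fold higher was NUP58, which left 27 genes within 1.5-fold. The 27 include POM121, counted from a probe set within background on both arrays that gives no reading of the gene. A brighter probe set that it shares with POM121C gave -0.71. RAE1 was under that size in 6 of 11 alternative settings and NUP58 in 1, so their place in this count is not firm. At 2-fold, 1 of the 31 was lower and 0 were higher, against 0.548% lower and 0.595% higher among all 12774 expressed genes. At 1.5-fold, 3 of the 31 were lower and 1 was higher, against 3.01% and 3.28% of all genes. These counts hold NUP210, through which the list was chosen. Of the 30 genes without it, 0 were at least 2-fold lower. At 1.5-fold, 2 of the 30 were lower and 1 was higher. The expressed genes include some within background, where ratios are understated, whereas 30 of the 31 pore genes read above background on both arrays. Shares among genes of similar brightness were not computed. In sign, 26 pore genes were lower and 5 higher, where 50.0% of all genes were lower by construction of the centring. The 26 include SEC13, whose ratio was just under 0 only through the centring, and the 5 include POM121. Most of these shifts were small. By more than 0.22, the technical spread, 9 pore genes were lower and 2 higher, against 19.2% of all genes lower and 19.9% higher, and 20 lay within it. The median log2 ratio of the pore genes was -0.12, and it was the same to 2 decimals without NUP210, against 0 for all expressed genes. NUP210 stood 0.73 below the next gene, NDC1, and had the 14th lowest ratio of all expressed genes.

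**Figure D1:**
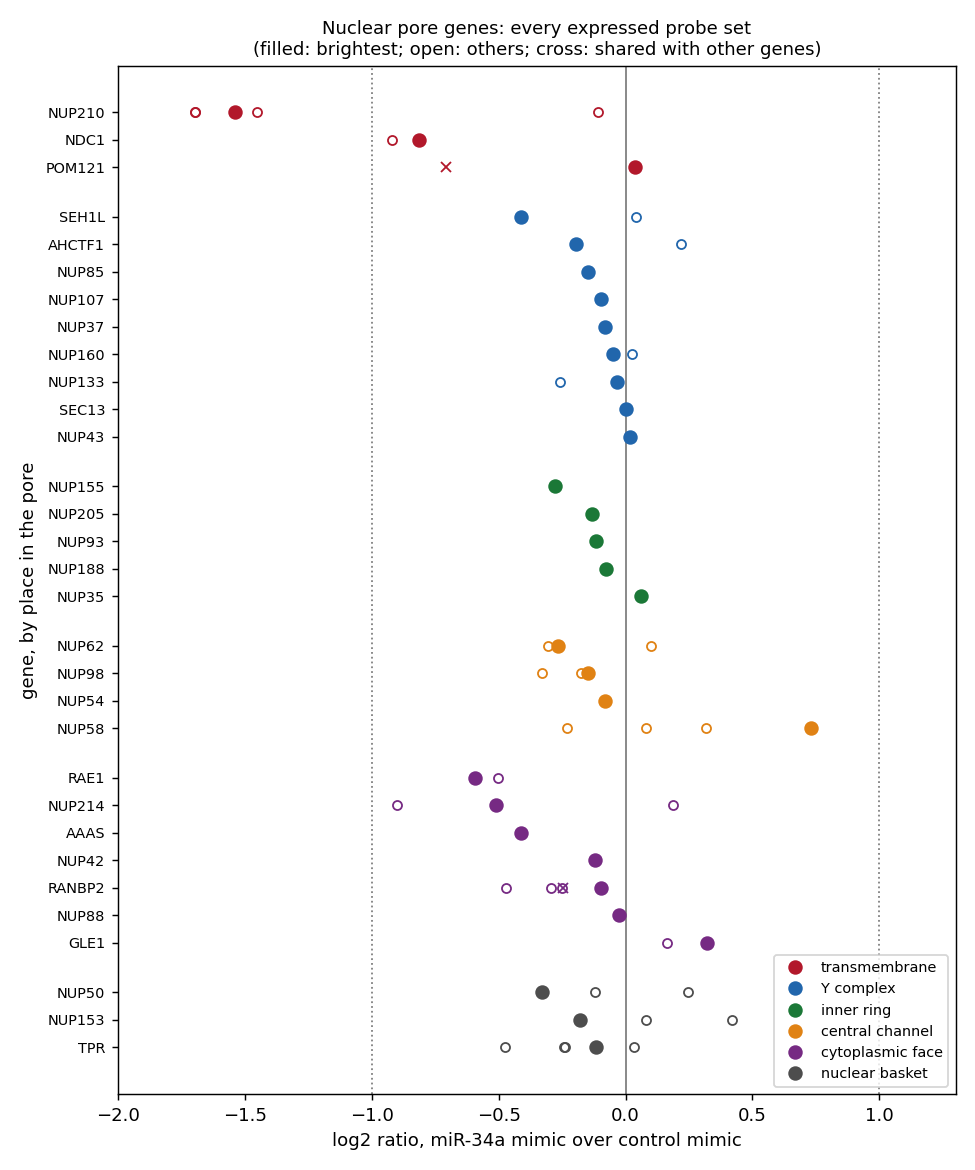
Log2 ratio of miR-34a mimic over control mimic (horizontal axis) for each pore gene (vertical axis, grouped by place in the pore), with filled points for the brightest expressed probe set, open points for the other expressed probe sets and crosses for probe sets shared with other genes; dotted lines mark 2-fold. NUP210 lies at -1.54, NDC1 at -0.81 and NUP58 at 0.73, and most other filled points lie a little left of 0.

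The membrane-spanning nucleoporins NUP210, NDC1 and POM121 had a median of -0.81, the NDC1 value. It rests on few genes and on NUP210, known beforehand to be low. It was -1.17 where a filter removed the dim POM121 probe set. Without the less specific _s_at class, to which 3 of the NUP210 and both NDC1 probe sets belong, it was -0.034. That was above the medians of the Y complex, inner ring, cytoplasmic face and basket. This value rested only on NUP210 at -0.11 and POM121 at 0.039, the latter within background on both arrays. NUP210 has 5 expressed probe sets. The brightest (213947_s_at) read 494.0 with miR-34a and 1455.1 with the control mimic, a log2 ratio of -1.54 or 2.91-fold lower on this scale. The second (213945_s_at) read 125.4 with miR-34a and 437.3 with control, at -1.70. On 4 of the 5 probe sets the miR-34a culture was thus far below the control culture, since 212316_at read 114.9 with miR-34a and 338.7 with control, at -1.45. The dimmest, 212315_s_at, read 76.0 with miR-34a, at the edge of background, and 278.3 with control, at -1.70. These 4, grouped because each was more than 2-fold lower, had a mean of -1.60 ± 0.12 (SD over probe sets). That SD is narrow in part because the probe set that differed is left out. The fifth, 220035_at, read 221.9 with miR-34a and 238.6 with control, at -0.11, and with it the mean was -1.30 ± 0.67 (SD, 5 probe sets). That probe set was above background on both arrays. Which transcripts of NUP210 each probe set detects was not analysed here.

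NDC1 is the membrane protein conserved from yeast to human that is needed for inserting pores into the envelope. Its brightest probe set (234672_s_at) read 1069.6 with miR-34a and 1877.4 with control, a log2 ratio of -0.81. The other (218073_s_at) read 238.4 with miR-34a and 461.4 with control, at -0.92, so both probe sets of this gene were lower by a similar size. POM121 anchors the pore and helps its assembly in interphase. The probe set named for it alone (205096_at) read 39.99 with miR-34a and 38.21 with control, within background on both arrays, and its ratio of 0.039 gives no reading of the gene. A brighter probe set (213360_s_at) is shared with its near-identical copy POM121C, and read 2457.7 with miR-34a and 3992.9 with control, a log2 ratio of -0.71. The array does not separate that pair on it. With the shared probe set counted, 7 of 9 probe sets of the membrane-spanning genes were at least 1.5-fold lower. These were 4 of NUP210, 2 of NDC1 and the shared one, so they are not separate genes, and most belong to the gene known beforehand to be low. Of the 64 expressed probe sets named for 1 pore gene alone, 8 were at least 1.5-fold lower and 4 at least 2-fold lower, against 3.00% and 0.505% of all 27307 expressed probe sets. The 8 were 4 of NUP210, 2 of NDC1 and 1 each of RAE1 and NUP214, and the 4 were all of NUP210.

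**Figure D2:**
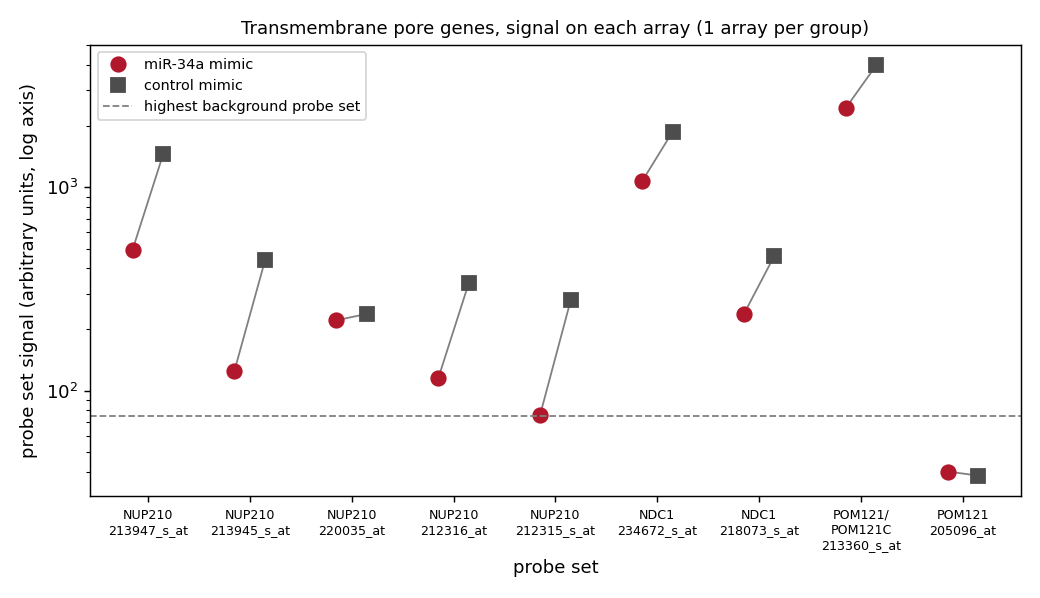
Signal of each expressed probe set of NUP210, NDC1 and POM121 (vertical axis, arbitrary units on a log axis) on the miR-34a array (red circles) and the control array (grey squares), 1 array per group, with the highest background signal, 75.4, as a dashed line. Signals are far lower with miR-34a on 4 NUP210 probe sets and lower on both NDC1 probe sets and the POM121/POM121C probe set, while 220035_at and the dim 205096_at are nearly level.

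The Y complex, which forms the outer rings and also sits at kinetochores in mitosis, had ratios between -0.41 and 0.018. Of its 9 genes 8 were lower and 1 higher, with a median of -0.083. None of the 9 was past 1.5-fold, which is near the 3.01% lower and 3.28% higher of all genes. SEH1L, a subunit that also belongs to a nutrient-sensing complex at the lysosome, was lowest at -0.41, from 1118.3 with miR-34a and 1481.7 with control, but its other probe set read 495.6 with miR-34a and 478.4 with control, at 0.040. NUP43, a peripheral subunit, was highest at 0.018, from 1787.8 with miR-34a and 1754.5 with control. The scaffold subunits NUP107, NUP133, NUP160 and NUP85 lay between -0.15 and -0.032, and NUP37 had -0.083. SEC13, shared with the coat of vesicles that leave the endoplasmic reticulum, read 2463.4 with miR-34a and 2448.2 with control, a difference near 0. It is among the 8 counted as lower only because the centring put its ratio just under 0. AHCTF1 (ELYS), which recruits the Y complex to chromatin when the nucleus reforms after mitosis, had -0.20 on its brightest probe set and 0.22 on another.

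The inner ring, the structural core that holds the channel, was likewise close to level, with a median of -0.12 over 5 genes, 4 of them lower. NUP155, which contacts the membrane, was lowest at -0.28, from 594.7 with miR-34a and 719.4 with control. NUP35, which binds membranes, was highest at 0.063, from 833.7 with miR-34a and 792.5 with control. The large scaffold proteins NUP205, NUP188 and NUP93 had -0.13, -0.076 and -0.12. Each inner ring gene had a single expressed probe set, so none of these values has a spread.

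In the central channel, whose FG repeats form the permeability barrier, 3 of 4 genes were lower and the median was -0.11. NUP62 was lowest, with 954.3 with miR-34a and 1143.7 with control, at -0.27, and -0.31 on its second probe set. NUP98, which is made as a precursor together with the Y complex subunit NUP96, was lower on each of 3 probe sets, between -0.33 and -0.15. NUP54, an FG protein of the channel trimer, had -0.083. NUP58, the third protein of that trimer beside NUP62, was the highest pore gene, at 0.73 from 428.5 with miR-34a and 250.9 with control. Its 4 probe sets did not move together, since the other 3 gave -0.23, 0.079 and 0.31, all above background on both arrays.

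On the cytoplasmic face 6 of 7 genes were lower, with a median of -0.12, or -0.28 as means over probe sets and -0.41 with probe sets of the _s_at and _x_at classes left out. RAE1, an mRNA export factor that binds NUP98 and also acts in spindle assembly, was lowest at -0.59, from 1070.6 with miR-34a and 1612.1 with control. Its second probe set read 641.2 with miR-34a and 909.9 with control, at -0.50, so the probe sets of RAE1 lay close together. NUP214, an FG filament protein that is part of fusion genes in leukemia and was singled out here after its values were seen, had -0.51 from 1691.5 with miR-34a and 2402.8 with control. Its other probe sets lay on either side, at -0.90 from 271.1 with miR-34a and 515.4 with control, and at 0.19 from 131.2 with miR-34a and 112.7 with control. AAAS (ALADIN), which is tethered to the pore by NDC1, had -0.41 on its 1 probe set, from 182.4 with miR-34a and 245.9 with control. RANBP2, the cytoplasmic filament protein that acts as a SUMO ligase, was lower on each of 4 probe sets, between -0.47 and -0.098. RANBP2 has near-identical RGPD copies, so its values are uncertain, and a probe set named for both RANBP2 and RGPD genes gave -0.25. NUP42, which binds GLE1, had -0.12, and NUP88, the partner of NUP214, had -0.028. GLE1, the activator of the export helicase DDX19, was the group's highest at 0.32, from 727.9 with miR-34a and 575.4 with control, and 0.16 on a dim probe set.

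All 3 genes of the nuclear basket were slightly lower, with a median of -0.18. NUP50, which helps importins release cargo, was lowest at -0.33, from 913.8 with miR-34a and 1143.9 with control, and its other 3 expressed probe sets ran up to 0.24. The 0.24 came from a probe set within background on both arrays, and the other one above background on both arrays gave -0.12. NUP153, which anchors the basket, had -0.18 on its brightest probe set and 0.079 and 0.42 on the others, the last with a control signal within background. TPR, the coiled-coil protein that forms the basket, was highest at -0.12, from 1708.9 with miR-34a and 1842.1 with control, with its 5 probe sets between -0.47 and 0.033.

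The arrays allow these sizes to be checked between probe sets of a gene. Of 16 pore genes with 2 or more expressed probe sets, 6 were lower on all of them and 1 was higher on all of them. The 6 were NUP210, NDC1, RAE1, NUP98, RANBP2 and NUP133, and the 1 was GLE1. The remaining 9 had probe sets of both signs. Among all genes with 2 or more, 54.0% had the same sign throughout. The SD over probe sets had a median of 0.21 for pore genes and 0.15 for all genes, and the largest among pore genes, 0.67, was that of NUP210. With the probe sets above background on both arrays, 14 pore genes had at least 2, and 7 of these had the same sign throughout. All 7 were lower, among them NUP210, known beforehand to be low, and they are not the same genes as before. The matching share of all genes at this filter was not computed. Nor was the share of all genes lower on every probe set. NUP133 and GLE1 dropped out, as their second probe sets were within background, and NUP62 and NUP50 came in. A further 13 probe sets of pore genes were under the expression filter, and all 13 read within background on both arrays.

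**Figure D3:**
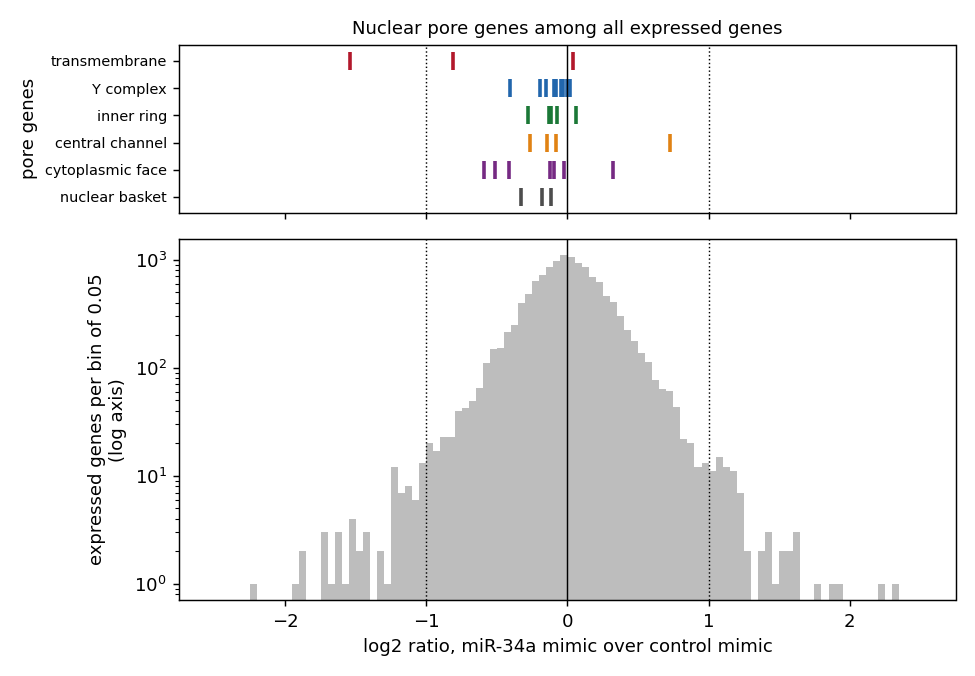
Log2 ratios of pore genes by structural group (upper panel, 1 tick per gene) over the histogram of all 12774 expressed genes (lower panel, genes per bin of 0.05 on a log axis), on a shared horizontal axis with dotted lines at 2-fold. NUP210 at -1.54 lies in the sparse left tail, NDC1 at -0.81 on the shoulder, and the Y complex, inner ring and basket inside the central peak.

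Promoter sequence was not used in choosing the pore genes and is described here. The RefSeq promoter table (GRCh38.p14, 250 bases before to 50 after each gene's start) held 28 of the 31. Their GC content had a median of 63.5%, against 58.3% for all 27305 promoters, and they held a median of 27 CG dinucleotides, against 14. The 27305 were not limited to genes expressed in K562 or matched to the pore genes by kind of gene. A difference from them is therefore not shown to be particular to pore genes. Searched on both strands, the TATA box TATAAA was in 0 of the 28 and in 11.95% of all promoters. The CCAAT box CCAAT was in 11 of 28, or 39.3%, against 35.7%, and the E-box CACGTG, the site of MYC and related factors, was in those of NUP50 and NUP188 and in 7.44% of all. The NRF1 core GCGCANGCG was in 4 of 28, or 14.3%, against 8.05%, and none of the 4 motifs contains another. The NUP210 promoter had the highest GC content of the 28, 81.3%, with 42 CG dinucleotides, and held none of the 4 motifs. It is shown for that composition, with CG in capitals, from chr3:13420273-13420572 on the minus strand of GRCh38.p14. The promoters of NDC1 and POM121 held none of the 4 motifs, with a GC content of 68.0% and 61.3%. A match or its absence describes these letters and nothing about the factors.
NUP210 promoter: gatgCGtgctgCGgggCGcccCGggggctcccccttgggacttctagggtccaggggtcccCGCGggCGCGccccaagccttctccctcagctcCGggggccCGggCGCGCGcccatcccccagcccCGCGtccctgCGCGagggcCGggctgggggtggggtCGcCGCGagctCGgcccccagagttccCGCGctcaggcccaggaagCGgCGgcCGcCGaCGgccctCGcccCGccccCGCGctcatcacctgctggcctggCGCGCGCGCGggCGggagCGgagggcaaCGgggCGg

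Genes that work with the pore or share the envelope with it were counted from 4 lists. Of their 64 expressed genes 0 had a log2 ratio past 2-fold in either direction, near the 0.548% lower and 0.595% higher among all genes. These lists were not run through the alternative settings. Together 44 were lower and 20 higher, where 50.0% of all genes were lower, with a median of -0.12. Of 23 expressed nuclear transport receptors, which carry cargo through the channel, 13 were lower and 10 higher, with a median of -0.092. XPO5, the exporter of precursor microRNAs, was lowest at -0.55, from 522.5 with miR-34a and 764.4 with control, and lower on all 3 probe sets. IPO5, an importin for ribosomal proteins and histones, had -0.48. KPNA5 and KPNA1, adaptors that bind import signals, were highest at 0.24 and 0.16, and the probe sets of KPNA1 ran from -0.44 to 0.55.

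In the Ran cycle, which gives transport its direction, all 6 expressed genes were lower, with a median of -0.30. RANGRF, which binds Ran and promotes release of its nucleotide, read 134.7 with miR-34a and 274.8 with control on its 1 expressed probe set, at -0.96. The plain signals differ by slightly more than 2-fold, so its place under that size depends on the added 14.9. RANGAP1, which triggers GTP hydrolysis by Ran and is held at the pore by RANBP2, had -0.56, with 3 probe sets between -0.57 and -0.52. RAN itself and its nucleotide exchange factor RCC1 were the highest, both at -0.12, and the second probe set of RAN gave 0.35. The other 3 genes listed for the cycle were not analysed here.

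Of 15 expressed genes for mRNA export and basket partners 13 were lower and 2 higher, with a median of -0.075. THOC6, a subunit of the TREX complex that couples transcription to export, and NXT1, a cofactor of the mRNA export receptor, were lowest at -0.42 and -0.36. MCM3AP, the scaffold of the TREX-2 complex at the basket, and the export adaptor ALYREF were highest at 0.022 and 0.021. In the nuclear lamina and envelope list, 12 of 20 genes were lower, with a median of -0.14. LMNB2, the lamin B2 gene, was lowest at -0.61, from 423.5 with miR-34a and 650.9 with control, followed by CHMP7, which directs the sealing of the reforming envelope, at -0.56. The nesprin genes SYNE3 and SYNE1, whose proteins link the envelope to the cytoskeleton, were highest at 0.39 and 0.16 on dim probe sets.

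**Figure D4:**
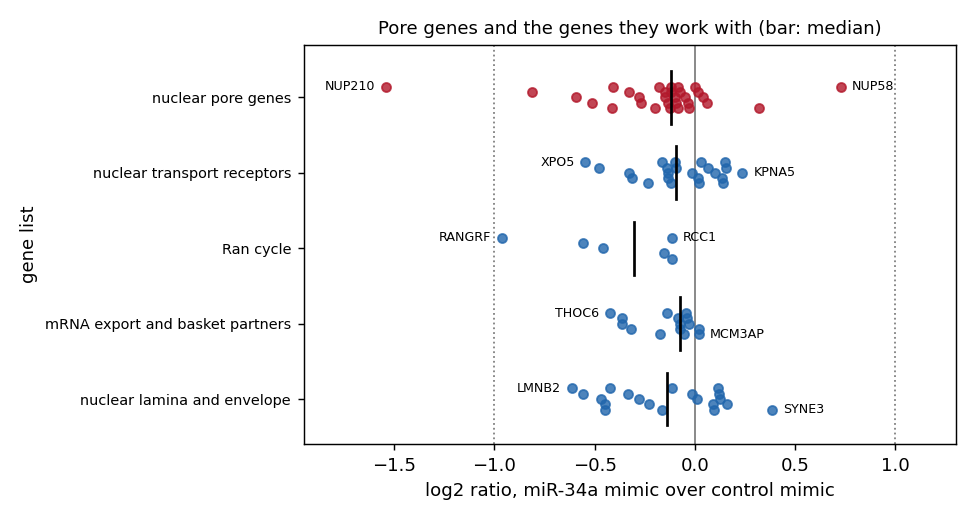
Log2 ratio of miR-34a mimic over control mimic (horizontal axis) for the 31 pore genes and the expressed genes of the 4 partner lists (vertical axis), 1 point per gene at its brightest expressed probe set, spread vertically for legibility, with a black bar at each median and dotted lines at 2-fold. NUP210 is the 1 point beyond the left dotted line, RANGRF at -0.96 comes closest to it, and the medians lie between -0.30 and -0.075.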

How the data were processed

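Both arrays stand in 1 table, deposited by the authors, of linear intensity per probe set. Labelling started from 15 µg of RNA, per the labels' protocols. How the arrays were background-corrected and scaled is not given in the sources used. Of the table's columns 0 were unused. Affymetrix classes _s_at and _x_at mark probe sets that can match several transcripts.

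The pseudocount of 14.9 was the 25th percentile of all values, and the centring subtracted 0.0090, the median log2 ratio of expressed genes. A probe set was expressed if its mean log2 level was at or above the median of probe sets other than controls. Probe sets with several symbols were kept out of gene values. The ratio understates changes of dim genes. Groups came from the labels, and no test across arrays exists for 1 array per group. The members, the lists, the sizes of 2-fold and 1.5-fold and the rule for named genes (the lowest and highest of each group, genes past 1.5-fold, the 2 lowest and 2 highest of each partner list) were chosen with earlier results of these data known. The calculation was tested on simulated data. Python 3.11.15, NumPy 2.4.6, pandas 2.3.3, statsmodels 0.14.6 and matplotlib 3.10.9 were used.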

Additional observations from a re-analysis of the deposited data

How the results depend on the processing

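The alternatives changed the pseudocount (4 times larger or smaller), the filter on dim probe sets, the centring, the scaling between arrays (by quantiles, or by loess at span 0.3), the choice of probe sets and the size threshold; counting probe sets shared with other genes, and following the count of lower genes, were chosen after seeing the data. A value was taken as moved if it differed from the reported one by more than the technical spread of 0.22. With 11 alternatives the median of the pore genes lay between -0.12 and -0.094. The count at least 2-fold lower was 1, NUP210, in each alternative that kept that size except the one without the _s_at, _x_at and _a_at classes, where it was 0 and the count of lower genes was 15 among the 22 pore genes left. There NUP210 took the value of 220035_at, -0.11, although 212316_at, the other probe set of that class, gave -1.45. As a mean over its probe sets NUP210 had -1.30. At 1.5-fold the counts were 3 lower and 1 higher. RAE1 sat on that size and was under it in 6 of 11 alternatives, with values from -0.60 to -0.55, and NUP58 was under it in 1, as a mean over probe sets, at 0.22. The transmembrane median ran from -1.17, where dim POM121 was filtered out, to -0.034 without the less specific classes. Without them the central channel median was 0.41 and the cytoplasmic face median -0.41, which was -0.28 as means over probe sets. That transmembrane value rested only on 220035_at of NUP210 and a POM121 probe set within background. That central channel value rested only on NUP58 and a NUP62 probe set within background. In the other alternatives 24 to 27 pore genes were lower. The number of arrays limits every value, and dim probe sets carry the least certain ratios.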
